A study of Arabidopsis thaliana with 18 samples.

Results

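The data are messenger RNA levels at ZT24, the end of the 16 h night, in whole Arabidopsis thaliana seedlings of 2 genotypes, sob3-6 and SOB3-D. The libraries were chosen by their labels as the 3 sob3-6 and the 3 SOB3-D columns of the ZT24 table, 6 of the 18 libraries of the series, and every nuclear gene of that table was considered. SOB3-D is an activation-tagged line in the Col-0 ecotype that overexpresses SOB3 (AHL29), and sob3-6 is the same line with a missense change in the AT-hook of the overexpressed SOB3 copy. Both genotypes therefore carry the activation tag, each is 1 line, and neither is the wild type, which was not analysed here. Seedlings were grown in short days (8 h light and 16 h dark) on medium with sucrose, were 6 days old at ZT24, and were pooled whole for each library. Libraries with the same replicate number came from the same plates, and different numbers from different plates. The other 12 libraries are of the same genotypes, 3 of each at ZT4 (during the day) and at ZT9 (after lights off), in seedlings 5 days old, and they are used only to set ZT24 beside the other times.

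SOB3 is one of the AHL proteins (AT-HOOK MOTIF CONTAINING NUCLEAR LOCALIZED), which sit on AT-rich DNA, assemble with each other through their PPC domain and hold back hypocotyl elongation. The sob3-6 protein can still assemble with its partners but not bind DNA, and seedlings that overexpress it are tall. In short days hypocotyls grow mostly late in the night, when phytochrome-interacting factors (PIFs), bHLH proteins that bind the G-box CACGTG, accumulate in the dark. Dawn is also the time at which leaf starch is nearly used up and at which the genes of photosynthesis are about to be used again. Genes higher in sob3-6 than in SOB3-D are called AHL-repressed and genes lower in sob3-6 AHL-induced, terms that do not by themselves say that an AHL acts on them directly.

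At ZT24 far more genes were higher than lower in sob3-6. The group with the largest share of higher genes among the 91 lists examined was the pathway of aliphatic glucosinolates, the methionine-derived defence compounds of the cabbage family. It was followed by marker genes of shade and PIF activity and by the Aux/IAA family. Resistance genes of the NB-LRR type, enzymes of the Calvin-Benson cycle, pectin methylesterases and cytochrome P450s also held more AHL-repressed genes than the background, whereas photosystem, ribosomal protein and histone genes held few or none. Most log2 differences in the photosystem and ribosomal protein lists were nonetheless small ones below 0, with medians of -0.09 and -0.12. AHL-induced genes were fewer and smaller in their changes, and were spread over many families.

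The 6 libraries had between 7922923 and 9757263 mapped reads, and 1 read was worth 0.103 to 0.126 CPM (reads on a transcript scaled to the mapped reads of its library). Log2 CPM correlated between replicates of a genotype with r of 0.981 to 0.988 across genes, and no 2 libraries agreed within sampling noise. The first principal component took 44.3% of the variance and separated sob3-6 from SOB3-D. Lists of endodermis, root hair, xylem and seed storage markers had no member called in either direction by limma (1, 1, 6 and 5 at an unadjusted p under 0.05; 1 root hair gene was lower by edgeR and 2 seed storage genes higher by DESeq2). The xylem list nevertheless had 16 of 17 log2 differences above 0 with a median of 0.35, and 6 members were higher without SOB3-D replicate 3 and 7 with the replicate block. Its summed level was 312 to 421 CPM in sob3-6 and 234 to 382 CPM in SOB3-D, and its part in the results was not tested. The median was -0.14 in the root hair list, with 4 of 19 log2 differences above 0. In the seed storage list it was 0.43, with 9 of 16 above 0. In the endodermis list it was -0.02, with 10 of 21 above 0. Summed root hair levels were 63.2 to 142 CPM in sob3-6 and 108 to 112.5 CPM in SOB3-D. Summed seed storage levels were 97.7 to 483 CPM in sob3-6 and 185 to 308 CPM in SOB3-D. The sums cover tested members only. The filter of a mean of at least 0.5 CPM leaves no tested member at 0 in all 6 libraries. Whether untested members of the 8 tissue marker lists were at 0 was not examined. In whole seedlings, fewer cells of a type and less RNA per cell cannot be told apart.

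SOB3 itself was at 317, 331 and 314 CPM in sob3-6, against 210.5, 235 and 212 CPM in SOB3-D. All 3 sob3-6 libraries lay above all 3 SOB3-D libraries, and the level was 1.47-fold higher (log2 difference 0.55 ± 0.07, limma adjusted p = 0.00181). Since both genotypes carry the overexpressed copy, this level does not tell a correct label from a wrong one. YUC8, an auxin synthesis gene that SOB3 is known to repress in constant light, was higher in sob3-6 (log2 difference 2.17 ± 0.21), the direction that the labels imply. The log2 difference here and throughout is sob3-6 minus SOB3-D on the scale of log2(CPM + 0.5), ± its standard error, n = 3 libraries of each genotype, and this scale understates the change of low genes. Folds are ratios of mean CPM. A gene is called where the adjusted p of at least 1 of its transcripts is under 0.05, in limma with Benjamini-Hochberg adjustment over all transcripts tested.

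Of 24745 nuclear genes in the table, 20530 had a transcript with a mean of at least 0.5 CPM and were tested. Of these, 1031 were higher in sob3-6 (5.02%) and 388 were lower (1.89%), 1419 in all (6.91%), and the shares by direction are the background for the counts of every list below. Without sob3-6 replicate 2 or SOB3-D replicate 2 the higher genes numbered 548 and 635, and without sob3-6 replicate 2, SOB3-D replicate 1, 2 or 3 the lower genes numbered 180, 222, 218 and 238. With the replicate number as a block, since same-numbered libraries shared plates, 1744 genes were higher (8.49%) and 992 lower (4.83%). The higher genes had a median log2 difference of 0.71, whereas the lower genes had a median of -0.58. By the log2 difference of the most abundant transcript, not the ratio of mean CPM, 309 of the higher and 60 of the lower genes differed by at least 2-fold. The median over all genes tested was 0.01. At an unadjusted p under 0.05, by the most abundant transcript, 2733 of the 20530 genes were higher and 1699 lower. These are the background for counts of list members at that threshold.

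**Figure D1:**
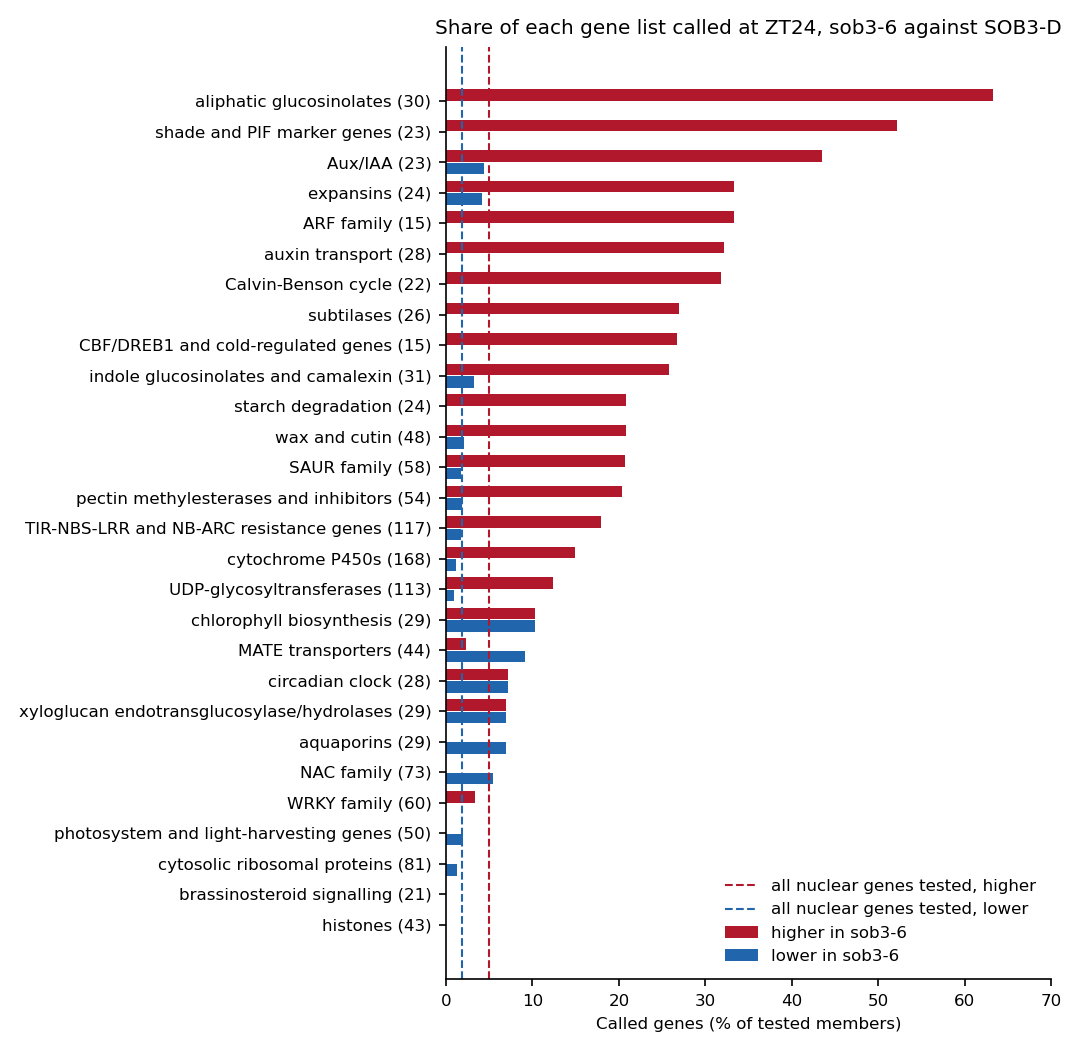
Share of the tested members of 28 of the gene lists that were called higher in sob3-6 (upper, red bars) and lower in sob3-6 (lower, blue bars) at ZT24, in percent, with the number tested in brackets and dashed lines at the shares of all nuclear genes tested, 5.02% higher and 1.89% lower. Aliphatic glucosinolates reach 63.3% higher, and no list drawn has a share of lower genes of that size.

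The gene with the largest log2 difference was AT1G66100, annotated as a plant thionin, a class of small antimicrobial peptides. It was at 19.9, 16.6 and 41.4 CPM in sob3-6, against 1.51, 0 and 0.205 CPM in SOB3-D, and every sob3-6 library was far above every SOB3-D library (log2 difference 4.78 ± 0.51, limma adjusted p = 0.00111). MAH1 (CYP96A15), the midchain alkane hydroxylase of stem wax, was at 15.02, 7.19 and 8.84 CPM in sob3-6, against 0, 0 and 0.102 CPM in SOB3-D. The SOB3-D libraries held 1 MAH1 read in all and the sob3-6 libraries 265, a ratio of 265.5 with an exact 95% counting interval of 47.2 to 10526.3 (limma adjusted p = 0.000166). The interval covers counting error only, not the spread between libraries. AT4G08093, for which the annotation gives no product, had no read in any SOB3-D library and 6.96, 4.95 and 6.76 CPM in sob3-6, at least 17.8-fold higher than the level of 3 reads per library (limma adjusted p = 0.000125).

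AT5G44440, a berberine bridge enzyme-like oxidase, was at 25.2, 18.4 and 19.3 CPM in sob3-6, against 1.01, 0.731 and 0.41 CPM in SOB3-D and was 29.2-fold higher (log2 difference 4.16 ± 0.22, limma adjusted p = 7.85e-05). COR15A, a chloroplast protein of cold acclimation, was at 12.7, 25.9 and 6.98 CPM in sob3-6, against 0.379, 0.365 and 0.717 CPM in SOB3-D, with the third sob3-6 library the lowest of its group but still above all SOB3-D libraries (log2 difference 3.82 ± 0.40, limma adjusted p = 0.00109). PMEPCRD and PME61, enzymes that demethylate wall pectin, were 11.4-fold higher and 18.1-fold higher, and both were also higher at ZT4 (log2 3.90 and 3.40) and at ZT9 (log2 3.82 and 3.79). ECS1 was at 91.6, 155 and 109 CPM in sob3-6, against 12.1, 11.2 and 12.3 CPM in SOB3-D, 9.98-fold higher (log2 difference 3.23 ± 0.17, limma adjusted p = 7.85e-05), a larger difference than the log2 0.96 at ZT4 and 0.98 at ZT9. AT5G42530, AT2G46640, AT5G02540 and ENODL1, of which the last is an early nodulin-like cell surface protein, completed the 12 largest, at 19.01, 14.7, 9.29 and 15.2 times the SOB3-D mean.

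Among AHL-induced genes the largest log2 difference was that of AT2G32550, an Rcd1-like protein, at 0.244, 0 and 0.327 CPM in sob3-6, against 8.71, 3.41 and 6.46 CPM in SOB3-D (log2 difference -3.22 ± 0.35, limma adjusted p = 0.00123). Its groups did not overlap, and it was lower at ZT4 (log2 -4.52) and ZT9 (log2 -4.24) as well. AHP1, a phosphotransfer protein of cytokinin signalling, was at 6.11, 5.77 and 5.13 CPM in sob3-6, against 17.3, 19.2 and 17.1 CPM in SOB3-D, 3.15-fold lower (log2 difference -1.58 ± 0.12, limma adjusted p = 0.000304). AT2G42170, an actin family gene, was at 12.6, 10.7 and 16.04 CPM in sob3-6, against 41.1, 40.7 and 43.7 CPM in SOB3-D, 3.19-fold lower (log2 difference -1.65 ± 0.14, limma adjusted p = 0.000374), with log2 differences of 0.03 at ZT4 and -0.33 at ZT9 that did not pass the test. WOX2, a homeobox factor of the early embryo, was 4.39-fold lower at a low level (0.932 ± 0.218 CPM in sob3-6, against 4.09 ± 1.06 CPM in SOB3-D, SD). AT3G44970, a cytochrome P450, CXE13, a carboxylesterase, and AT2G15030 were 4.95-fold lower, 4.21-fold lower and 4.28-fold lower. AT1G30250, AT1G13540, DAR3 and AT3G13404 were also among the 12, at 4.09, 3.25, 4.29 and 3.55 times lower. The call of AT3G13404 was lost without sob3-6 replicate 2 (limma adjusted p = 0.0599), SOB3-D replicate 1 (0.0569) or SOB3-D replicate 3 (0.0578).

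Aliphatic glucosinolates are made in steps: a methionine-derived chain is lengthened in the chloroplast, the core structure is built by cytochrome P450s and conjugating enzymes, and the side chain is then oxidised. MYB28 and MYB29 are the factors known to drive these genes. Of the 30 genes tested, 19 were higher in sob3-6 (63.3%) and none was lower by limma, edgeR or DESeq2 or at an unadjusted p under 0.05, 27 had a positive log2 difference, and the median was 1.15. Without each library in turn the count was 15 to 19. At ZT4 only 1 of the list was higher and none lower, and at ZT9 2 were higher and 6 lower.

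MYB28 was at 41.4, 46.6 and 30.8 CPM in sob3-6, against 20.3, 18.8 and 17.5 CPM in SOB3-D, without overlap of the groups (2.099-fold higher, log2 difference 1.03 ± 0.15, limma adjusted p = 0.00423). MYB29 was at 1.83, 4.01 and 2.18 CPM in sob3-6, against 0.252, 2.07 and 0.41 CPM in SOB3-D, where the second SOB3-D library lay within the sob3-6 values and the gene was not called (limma adjusted p = 0.136), except with the replicate block (limma adjusted p = 0.011). For chain elongation, MAM1, the methylthioalkylmalate synthase, was at 26.3, 33.8 and 27.6 CPM in sob3-6, against 6.82, 12.2 and 12.9 CPM in SOB3-D and was 2.75-fold higher (log2 difference 1.46 ± 0.22, limma adjusted p = 0.00577). The transaminase BCAT4, the transporter BAT5 and the small isomerase subunits IPMI1 and IPMI2 were 2.78, 2.78, 2.92 and 2.43 times the SOB3-D mean. Of the 84-base stretches of BCAT4, 16.4% occur in another gene, so its reads may be shared.

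For the core structure, CYP79F1, which turns the elongated methionines into aldoximes, was at 9.65, 12.6 and 10.3 CPM in sob3-6, against 0.379, 0.974 and 1.33 CPM in SOB3-D, with all SOB3-D libraries near the level of a few reads (12.1-fold higher, log2 difference 3.08 ± 0.28, limma adjusted p = 0.000533). Its neighbour and copy CYP79F2 was at 12.9, 17.2 and 10.7 CPM in sob3-6, against 4.67, 5.97 and 5.64 CPM in SOB3-D (2.51-fold higher, log2 difference 1.23 ± 0.19, limma adjusted p = 0.00573). CYP83A1, the next enzyme, was at 22.8, 34.9 and 28.9 CPM in sob3-6, against 8.08, 10.3 and 13.1 CPM in SOB3-D, and its lowest sob3-6 library was above its highest SOB3-D library (2.75-fold higher, log2 difference 1.42 ± 0.20, limma adjusted p = 0.00366). The conjugating enzymes GSTU20, UGT74C1 and SOT17 were 2.29, 1.74 and 2.48 times the SOB3-D mean, and SUR1, the C-S lyase shared with the indole branch, was 1.64-fold higher. For the side chain, the S-oxygenases FMO GS-OX1 and FMO GS-OX3 were 6.92 and 4.9 times the SOB3-D mean, at low levels.

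By the test of the ZT24 difference against the mean of ZT4 and ZT9, in 1 fit of all 18 libraries, 6 of the 30 genes departed (adjusted p under 0.05), and none of them without replicate 2. CYP83A1 had log2 differences of -0.67 at ZT4 (not called) and -1.65 at ZT9 (lower in sob3-6), against 1.42 at ZT24 (limma adjusted p of the departure = 0.027, and 0.134 without replicate 2). BCAT4 was likewise lower in sob3-6 at ZT9 (log2 -1.86) and higher at ZT24 (log2 1.41), but did not pass the test of the departure (limma adjusted p = 0.141). IPMI1 had the same directions (log2 -0.90 at ZT9 and 1.44 at ZT24). MYB28 had log2 differences of -0.01 at ZT4 and 0.02 at ZT9, neither called, against 1.03 at ZT24. SOT17 was higher at ZT9 too (log2 0.73).

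**Figure D2:**
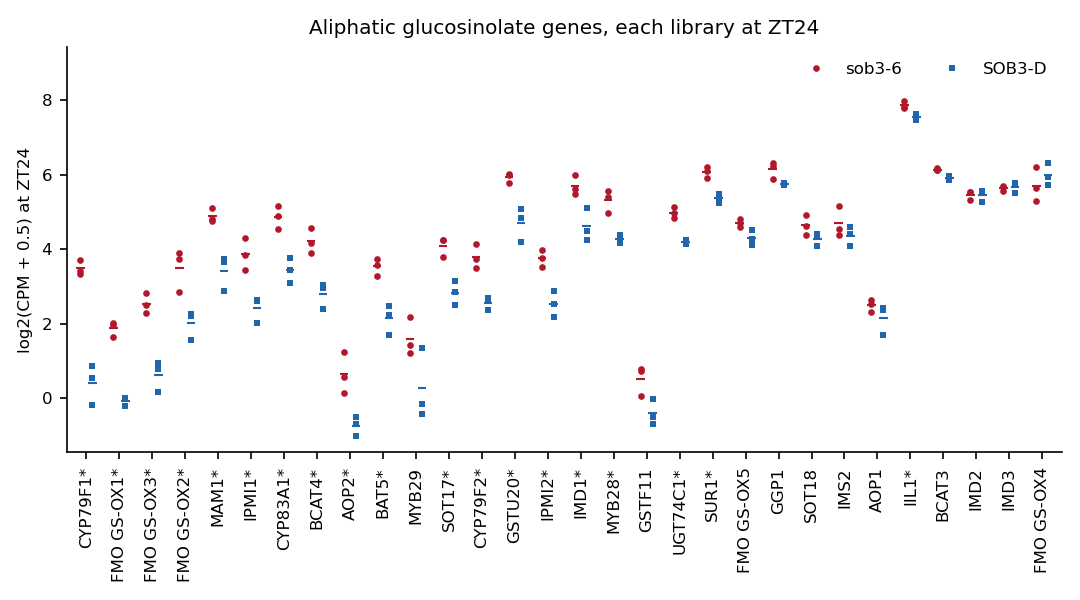
Level as log2(CPM + 0.5) of the 30 aliphatic glucosinolate genes at ZT24 in each of the 3 sob3-6 libraries (red circles, left of each pair) and the 3 SOB3-D libraries (blue squares), with a dash at each mean and an asterisk on the 19 called genes, ordered by the log2 difference. The pair farthest apart is CYP79F1, at 9.65 to 12.6 CPM in sob3-6 and 0.379 to 1.33 CPM in SOB3-D, and the points of MYB29 overlap.

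The promoter of CYP83A1 is shown because the gene is part of the list with the largest share of calls and its window holds a G-box, the element that PIFs bind. It is the 250 bases before the annotated gene start, chr4:7992430-7992679 on the minus strand of TAIR10.1, from the RefSeq genome, 5′ to 3′, and the capitals mark CACGTG at positions -43 to -38 from the start.
CYP83A1: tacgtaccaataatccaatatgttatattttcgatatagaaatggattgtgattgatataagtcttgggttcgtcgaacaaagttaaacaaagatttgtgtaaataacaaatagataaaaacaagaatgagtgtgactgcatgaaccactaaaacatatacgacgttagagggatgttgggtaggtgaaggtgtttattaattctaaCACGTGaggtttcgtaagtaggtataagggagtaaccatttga
The sequence was chosen after the values were seen. In the list, 3 of 30 promoters held CACGTG, against 1525 of 20451 promoters of tested genes (7.46%).

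Glucosinolates act when myrosinases hydrolyse them, and specifier proteins then set the product. Among the 31 genes of the indole glucosinolate and camalexin list, which also holds these enzymes, 8 were higher (25.8%) and 1 lower, with a median of 0.21. Without sob3-6 replicate 2 the higher genes numbered 5, and the lower gene, ESM1, was not called without sob3-6 replicate 1 or 2 or SOB3-D replicate 2 or 3. The myrosinase TGG2 was at 125, 95.3 and 122.6 CPM in sob3-6, against 49.2, 66.98 and 51.5 CPM in SOB3-D and was 2.04-fold higher (log2 difference 1.03 ± 0.14, limma adjusted p = 0.00327). TGG1, the other leaf myrosinase, was at 1327, 1264 and 1489 CPM in sob3-6, against 1285, 1330 and 1394 CPM in SOB3-D, with overlapping groups and no call (limma adjusted p = 0.909). ESP, the epithiospecifier protein, was at 10.5, 9.54 and 7.96 CPM in sob3-6, against 1.51, 2.56 and 1.02 CPM in SOB3-D, with no overlap (5.496-fold higher, log2 difference 2.21 ± 0.26, limma adjusted p = 0.00165). CYP83B1, the P450 of the indole branch, was 1.71-fold higher (184 ± 18.3 CPM in sob3-6, against 108 ± 10.6 CPM in SOB3-D, SD, limma adjusted p = 0.00206).

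The Calvin-Benson cycle fixes carbon dioxide through Rubisco and regenerates its substrate. Of its 22 genes 7 were higher (31.8%) and none was lower (1 at an unadjusted p under 0.05, none by edgeR or DESeq2), and the median was 0.28. The count was 4 without SOB3-D replicate 2 and 14 higher and 1 lower with the replicate block. SBPASE, the bisphosphatase of the regeneration phase, was at 485, 514 and 522 CPM in sob3-6, against 320.2, 339 and 358 CPM in SOB3-D, the lowest sob3-6 library well above the highest SOB3-D library (1.495-fold higher, log2 difference 0.58 ± 0.07, limma adjusted p = 0.00159). CP12-2, a small regulator that ties down cycle enzymes in the dark, was at 48.98, 62.8 and 56.2 CPM in sob3-6, against 29.8, 28.5 and 23.98 CPM in SOB3-D and was 2.04-fold higher (log2 difference 1.02 ± 0.12, limma adjusted p = 0.00159). FBA1, the plastid aldolase, was at 1064, 1204 and 1025 CPM in sob3-6, against 755, 817 and 766 CPM in SOB3-D (1.41-fold higher, log2 difference 0.49 ± 0.08, limma adjusted p = 0.00741).

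Among the small subunit genes of Rubisco, RBCS2B was at 2575, 2327 and 3013 CPM in sob3-6, against 1758, 1635 and 1918 CPM in SOB3-D, without overlap (1.49-fold higher, log2 difference 0.57 ± 0.11, limma adjusted p = 0.0153). Its call was lost without SOB3-D replicate 1 (limma adjusted p = 0.0539) or 2 (0.0781). RBCS1B was 1.47-fold higher, and lost its call without SOB3-D replicate 2 (limma adjusted p = 0.0862). Rubisco activase, RCA, had a log2 difference of 0.33 ± 0.09 and was not called (limma adjusted p = 0.0628), although its groups did not overlap and it was called higher with the replicate block (limma adjusted p = 0.00938), by edgeR and by DESeq2. The genes are near copies of each other: 8.28% of the 84-base stretches of RBCS1B and 2.35% of those of RBCS2B occur in another gene.

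The promoter of RBCS2B is shown as that of an abundant member of the cycle with a G-box, which in light-regulated genes is a known binding site of bZIP and bHLH factors. It lies at chr5:15382072-15382321 on the minus strand of TAIR10.1 (RefSeq genome), with CACGTG in capitals at positions -123 to -118 from the gene start.
RBCS2B: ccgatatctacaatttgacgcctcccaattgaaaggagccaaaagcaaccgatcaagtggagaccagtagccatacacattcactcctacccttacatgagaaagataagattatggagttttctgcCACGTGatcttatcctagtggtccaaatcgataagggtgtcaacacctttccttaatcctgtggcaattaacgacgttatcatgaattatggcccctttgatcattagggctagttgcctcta
Of the promoters of the 22 genes, 3 (13.6%) held CACGTG, against 7.46% of all tested genes.

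At ZT9 the direction was the other one. There 12 of the 22 genes were lower in sob3-6 and none higher, against backgrounds of 4.11% lower and 6.09% higher, and at ZT4 2 were lower. For SBPASE the log2 differences at ZT4, ZT9 and ZT24 were -0.45, -0.72 and 0.58. For FBA1 they were -0.82, -0.99 and 0.49, and all 3 were called. For CP12-2 they were -0.59, -0.79 and 1.02, of which the first was not called. CA1, a plastid carbonic anhydrase counted in the guard cell list but expressed throughout the leaf, was at 1760, 1854 and 2137 CPM in sob3-6, against 1043, 1020 and 1226 CPM in SOB3-D (1.75-fold higher, log2 difference 0.81 ± 0.10, limma adjusted p = 0.00248), and was lower in sob3-6 at ZT9 (log2 -1.06). Of the 84-base stretches of CA1, 12% occur in another gene.

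**Figure D3:**
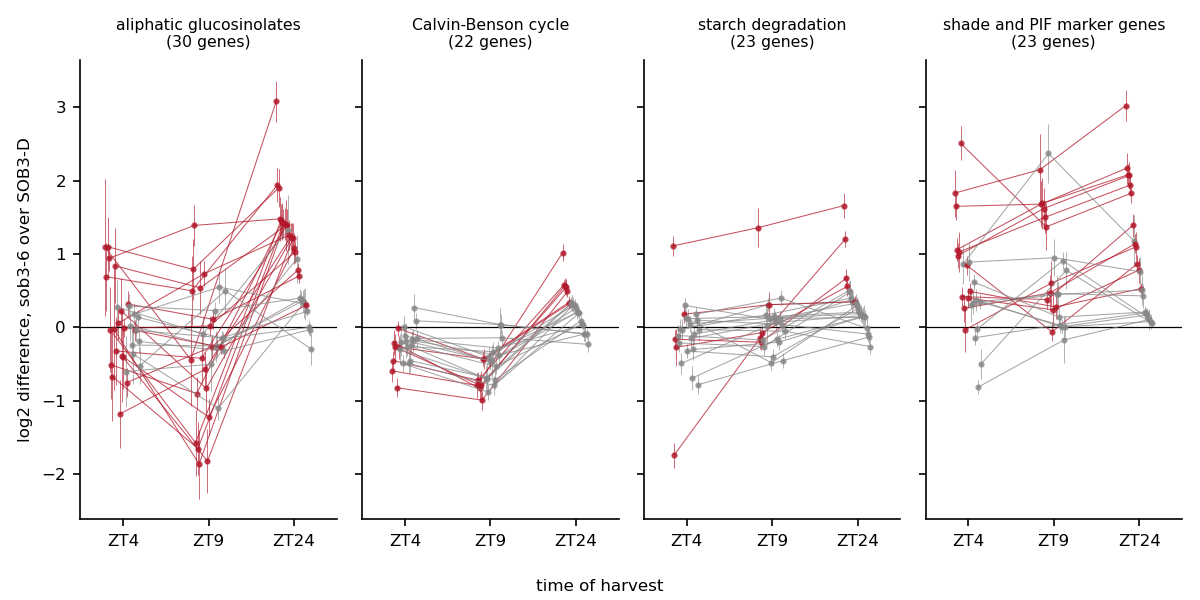
Log2 difference, sob3-6 minus SOB3-D (± standard error), at ZT4, ZT9 and ZT24 for 4 gene lists, 1 line per gene that was tested at all 3 times, in red where the gene was higher in sob3-6 at ZT24 and in grey otherwise. FBA1 of the Calvin-Benson cycle stands at -0.82, -0.99 and 0.49, whereas YUC8 of the shade and PIF markers is above 0 at all 3 times.

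Starch stored by day is broken down at night by phosphorylation of its surface and by beta-amylases. Of 24 genes of starch degradation 5 were higher (20.8%) and none lower (1 at an unadjusted p under 0.05, none by edgeR or DESeq2), with a median of 0.28. Without sob3-6 replicate 2, SOB3-D replicate 2 or SOB3-D replicate 3 the count was 2, 3 and 2. BAM3, the main beta-amylase of leaf starch at night, was at 42.1, 50.8 and 53.6 CPM in sob3-6, against 22.6, 20.5 and 19.7 CPM in SOB3-D, with groups far apart (2.33-fold higher, log2 difference 1.20 ± 0.11, limma adjusted p = 0.000571). At ZT4 BAM3 was lower in sob3-6 (log2 -1.74). GWD2, a glucan, water dikinase outside the plastid, was 3.47-fold higher (14.2 ± 2.79 CPM in sob3-6, against 4.08 ± 0.4096 CPM in SOB3-D, SD, limma adjusted p = 0.001). In starch synthesis 2 of 17 genes were higher, 1 of them without sob3-6 replicate 2, and GBSS1, which makes amylose, was at 178, 191 and 150.4 CPM in sob3-6, against 89.9, 84.2 and 88.3 CPM in SOB3-D (1.98-fold higher, log2 difference 0.98 ± 0.09, limma adjusted p = 0.000673).

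Few genes of the light-capturing apparatus were called. Of 50 photosystem and light-harvesting genes none was higher (2 at an unadjusted p under 0.05, none by edgeR or DESeq2) and 1 was lower (14 at an unadjusted p under 0.05, 4 by edgeR and 6 by DESeq2). The 1 gene was PSAE-2, a small subunit of photosystem I, at 224, 229 and 255 CPM in sob3-6, against 316, 310.3 and 330 CPM in SOB3-D (1.35-fold lower, log2 difference -0.43 ± 0.07, limma adjusted p = 0.00689). With the replicate block 2 were higher and 10 lower, and at ZT9 18 were higher and 3 lower in the same list. In chlorophyll synthesis 3 of 29 genes were higher and 3 lower, and without SOB3-D replicate 2 only 1 was lower. FC2, which inserts iron into protoporphyrin for haem, was at 52.9, 55.6 and 50.3 CPM in sob3-6, against 28.3, 31.3 and 30.5 CPM in SOB3-D (1.76-fold higher, log2 difference 0.81 ± 0.08, limma adjusted p = 0.00081). POR C, a light-dependent protochlorophyllide oxidoreductase, was 1.42-fold higher (90.5 ± 3.94 CPM in sob3-6, against 63.9 ± 3.26 CPM in SOB3-D, SD, limma adjusted p = 0.00406). CHLM, the magnesium protoporphyrin methyltransferase, was 1.29-fold lower (332 ± 16.6 CPM in sob3-6, against 429 ± 12.3 CPM in SOB3-D, SD, limma adjusted p = 0.00948). PORA, the oxidoreductase of dark-grown seedlings, was at 1.71, 1.296 and 2.4 CPM in sob3-6, against 1.64, 2.31 and 3.997 CPM in SOB3-D and was not called (limma adjusted p = 0.494), whereas it was higher in sob3-6 at ZT4 (log2 3.07) and ZT9 (log2 2.68).

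NB-LRR proteins are intracellular immune receptors that recognise pathogen effectors, and many lie in clusters of similar genes. Of 117 tested, 21 were higher (17.9%) and 2 lower, 84 had a positive log2 difference, and the median was 0.18. Without each library in turn 15 to 22 were higher, and 34 were higher with the replicate block. At ZT4 1 of the list was higher and none lower, and at ZT9 9 were higher and 3 lower. Without any 1 of the libraries except sob3-6 replicate 3 only 1 of the 2 lower genes was called, AT1G58400, which was 1.69-fold lower (limma adjusted p = 0.00886).

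AT1G58602 was at 165, 197 and 215 CPM in sob3-6, against 87.7, 95.5 and 98.5 CPM in SOB3-D, every sob3-6 library above every SOB3-D library (2.05-fold higher, log2 difference 1.02 ± 0.10, limma adjusted p = 0.00074). AT1G56520 was at 10.02, 9.78 and 11.5 CPM in sob3-6, against 3.41, 3.53 and 4.41 CPM in SOB3-D (2.75-fold higher, log2 difference 1.35 ± 0.15, limma adjusted p = 0.00155). AT5G58120, AT1G61300, AT1G62630 and AT4G19530 were 2.85, 1.88, 1.85 and 1.81 times the SOB3-D mean. The 4 genes AT1G58807, AT1G58848, AT1G59124 and AT1G59218 share 90.6% to 100% of their 84-base stretches with another gene, so that their reads cannot be assigned and they count as uncertain. They were singled out after their values were seen, with folds of 1.24 to 1.28, and AT1G58848 and AT1G59218 lost their calls without sob3-6 replicate 2 or SOB3-D replicate 1 or 2 (limma adjusted p of up to 0.0903).

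SNC1, whose gain of function gives autoimmune dwarf plants, lies in the RPP4 cluster on chromosome 4, and both genes were chosen after their values were seen. SNC1 was at 89.04, 103 and 102 CPM in sob3-6, against 56.7, 59.1 and 62.6 CPM in SOB3-D, without overlap (1.65-fold higher, log2 difference 0.72 ± 0.08, limma adjusted p = 0.00147). RPP4, a receptor of downy mildew effectors, was 1.51-fold higher (limma adjusted p = 0.0438), a call lost without sob3-6 replicate 2 (limma adjusted p = 0.153), sob3-6 replicate 3 (0.0987), SOB3-D replicate 1 (0.123) or SOB3-D replicate 2 (0.122). The 2 genes share stretches with other genes (7.27% of those of SNC1 and 13.1% of those of RPP4). The evening element AAAATATCT, bound by clock factors, occurred in the window before SNC1, and that window is shown because SNC1 was called at ZT24 and at no other time (log2 -0.08 at ZT4 and 0.30 at ZT9). It lies at chr4:9505973-9506222 on the minus strand of TAIR10.1 (RefSeq genome), with the element in capitals at positions -147 to -139.
SNC1: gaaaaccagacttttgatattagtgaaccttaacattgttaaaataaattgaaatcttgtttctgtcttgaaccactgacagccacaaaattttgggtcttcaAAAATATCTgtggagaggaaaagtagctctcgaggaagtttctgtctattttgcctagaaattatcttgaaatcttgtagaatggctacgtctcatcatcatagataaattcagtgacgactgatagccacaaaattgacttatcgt
The same letters were in 2.17% of the promoters of AHL-repressed genes, 1.80% of those of AHL-induced genes and 2.44% of all.

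Genes that answer to shade and to PIFs were called higher in sob3-6 in part. Of 23 marker genes of shade and PIF activity 12 were higher (52.2%) and none was lower by limma, edgeR or DESeq2 or at an unadjusted p under 0.05, 23 had a positive log2 difference, the median was 0.78, and without each library in turn the count was 11 to 12. The same list had 8 higher and 1 lower at ZT4 and 9 higher and none lower at ZT9. ACS8, an enzyme that makes the ethylene precursor, was at 21.5, 17.1 and 28.8 CPM in sob3-6, against 2.02, 2.801 and 2.05 CPM in SOB3-D, with every sob3-6 library far above every SOB3-D library (9.81-fold higher, log2 difference 3.02 ± 0.21, limma adjusted p = 0.000181). ST2A, a sulfotransferase of 12-hydroxyjasmonate, was at 259, 338 and 379 CPM in sob3-6, against 68.4, 85.2 and 73.8 CPM in SOB3-D (4.29-fold higher, log2 difference 2.08 ± 0.14, limma adjusted p = 0.000165). CKX5, a cytokinin oxidase, was at 53.1, 44.2 and 72.1 CPM in sob3-6, against 21.2, 20.7 and 20.5 CPM in SOB3-D (2.71-fold higher, log2 difference 1.39 ± 0.16, limma adjusted p = 0.00144). The homeobox genes ATHB4 and HAT2 of the shade response were 2.29-fold higher and 1.83-fold higher. Among the 7 PIF genes themselves 2 were higher, PIF3 (1.44-fold higher, limma adjusted p = 0.0269) and PIF5, and without sob3-6 replicate 2 or any SOB3-D library neither was called.

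**Figure D4:**
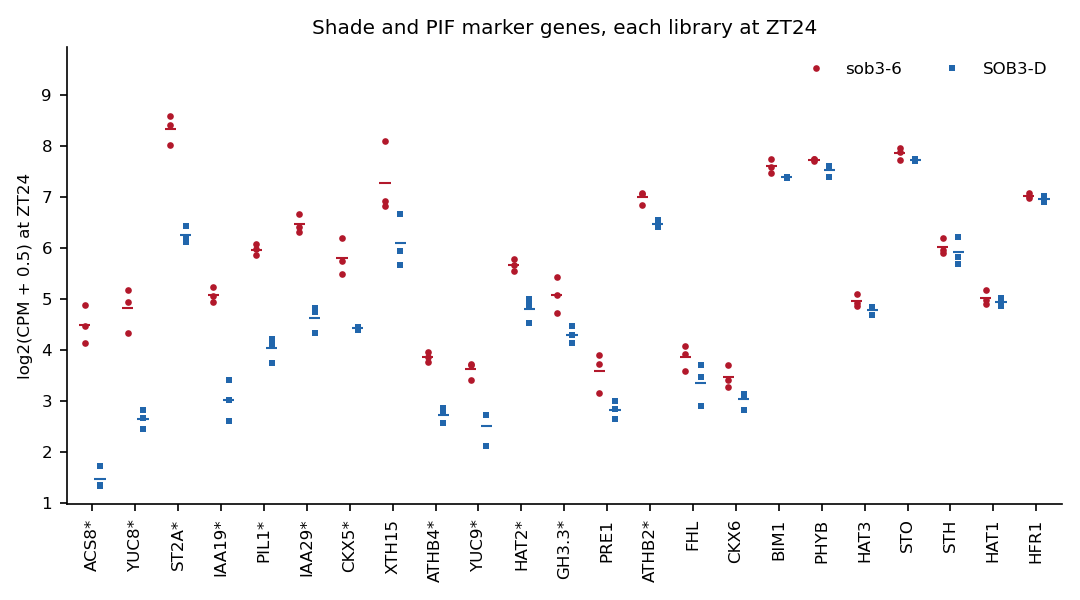
Level as log2(CPM + 0.5) of the 23 shade and PIF marker genes at ZT24 in each of the 3 sob3-6 libraries (red circles, left of each pair) and the 3 SOB3-D libraries (blue squares), with a dash at each mean and an asterisk on the 12 called genes, ordered by the log2 difference. The pair farthest apart is ACS8, at 17.1 to 28.8 CPM in sob3-6 and 2.02 to 2.801 CPM in SOB3-D, and genes at the right end such as HFR1 overlap.

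Auxin promotes elongation through a path in which YUCCA enzymes make it, PIN and ABCB proteins move it, and Aux/IAA proteins restrain the ARF factors until auxin removes them. Of 23 Aux/IAA genes 10 were higher (43.5%) and 1 lower, with a median of 0.29, and without each library in turn 7 to 9 were higher. IAA6 was at 3.54, 4.59 and 5.35 CPM in sob3-6, against 0, 0.853 and 0.615 CPM in SOB3-D (9.19-fold higher, log2 difference 2.44 ± 0.37, limma adjusted p = 0.00581). IAA7, IAA14 and IAA2 were 2.03, 2.04 and 1.86 times the SOB3-D mean. IAA17 (AXR3) was the 1 lower member, at 50.6, 44.8 and 44.6 CPM in sob3-6, against 65.8, 62.7 and 68.9 CPM in SOB3-D (1.41-fold lower, log2 difference -0.49 ± 0.08, limma adjusted p = 0.00719). The groups did not overlap for IAA17 either.

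The promoter of IAA19, a PIF target in the hypocotyl that was 4.304-fold higher (log2 difference 2.07 ± 0.19, limma adjusted p = 0.000629), is shown for its G-box. It lies at chr3:5263751-5264000 on the plus strand of TAIR10.1 (RefSeq genome), with CACGTG in capitals at positions -70 to -65.
IAA19: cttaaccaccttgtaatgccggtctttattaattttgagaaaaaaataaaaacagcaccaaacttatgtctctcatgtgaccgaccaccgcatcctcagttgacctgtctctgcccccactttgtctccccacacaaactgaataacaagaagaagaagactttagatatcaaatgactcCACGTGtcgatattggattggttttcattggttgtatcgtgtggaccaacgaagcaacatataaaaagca
Over all AHL-repressed genes with a position, 84 of 1013 promoters held CACGTG (8.29%), and 25 of 388 promoters of AHL-induced genes (6.44%), against 7.46% of all. The letters GGGCCC, GTGGGNCC and AATATATT, searched like the others on both strands of the 250 bases, were in 1.28%, 1.28% and 5.03% of the promoters of AHL-repressed genes and in 2.05%, 1.28% and 4.39% of all. The median GC content was 30.8% before AHL-repressed genes, 29.6% before AHL-induced genes and 31.2% before all genes.

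In auxin transport 9 of 28 genes were higher (32.1%) and none lower, also at an unadjusted p under 0.05 and by edgeR and DESeq2, and 5 were higher without sob3-6 replicate 2 or SOB3-D replicate 2. PIN3, the carrier that redirects auxin in bending hypocotyls, was at 334, 336 and 376 CPM in sob3-6, against 244, 242 and 236 CPM in SOB3-D (1.45-fold higher, log2 difference 0.53 ± 0.07, limma adjusted p = 0.00248). PIN4 and ABCB1 were 1.605-fold higher and 1.36-fold higher, and WAG2, a kinase that acts on PIN proteins, was 2.56-fold higher. Of 58 SAUR genes, small proteins that keep wall proton pumps active, 12 were higher (20.7%) and 1 lower, and without sob3-6 replicate 1 or 2 the higher ones numbered 6 and 7. The lower one was not called without any SOB3-D library or by DESeq2, and 2 were lower without sob3-6 replicate 3. SAUR23 was at 17.8, 16.5 and 13.6 CPM in sob3-6, against 6.44, 6.58 and 7.17 CPM in SOB3-D (2.38-fold higher, log2 difference 1.18 ± 0.14, limma adjusted p = 0.00159). Of 16 GH3 genes, which conjugate auxin to amino acids, 3 were higher, and GH3.5 was at 218, 233 and 249.7 CPM in sob3-6, against 103, 128 and 107 CPM in SOB3-D (2.08-fold higher, log2 difference 1.06 ± 0.09, limma adjusted p = 0.000494). Of 15 ARF genes 5 were higher (33.3%), but without sob3-6 replicate 2 or SOB3-D replicate 1, 2 or 3 the count was 1, 2, 1 and 2. ARF2 was 1.31-fold higher (408 ± 21.7 CPM in sob3-6, against 311 ± 10.4 CPM in SOB3-D, SD, limma adjusted p = 0.00834).

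Growth is also balanced by bHLH proteins that do not bind DNA. Of 22 such growth regulators 5 were higher and 1 lower (2 lower without sob3-6 replicate 3). IBH1, an inhibitor of elongation, was at 60.2, 62.8 and 57.2 CPM in sob3-6, against 22.3, 25.3 and 22.2 CPM in SOB3-D, with groups far apart (2.58-fold higher, log2 difference 1.35 ± 0.09, limma adjusted p = 0.000141). PRE2, of the opposing PRE group, was 2.73-fold higher (7.598 ± 0.637 CPM in sob3-6, against 2.78 ± 0.2603 CPM in SOB3-D, SD, limma adjusted p = 0.00187). AIF1, a relative of IBH1, was at 5.62, 4.24 and 4.47 CPM in sob3-6, against 10.7, 8.77 and 10.04 CPM in SOB3-D and was 2.06-fold lower (log2 difference -0.98 ± 0.16, limma adjusted p = 0.00726). At ZT9 AIF1 had a log2 difference of 0.21, not called.

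In the cell wall, pectin methylesterases and their inhibitors had 11 of 54 genes higher (20.4%) and 1 lower, with 6 or 7 higher without any 1 library, and the lower one was not called without any library other than sob3-6 replicate 2. Besides PMEPCRD and PME61, the inhibitor-like AT1G14890 was 2.07-fold higher (limma adjusted p = 0.00515). Of 24 expansins, proteins that loosen walls, 8 were higher (33.3%) and 1 lower, around a median of 0.00, and without sob3-6 replicate 1 or 2 or SOB3-D replicate 2 or 3 the higher ones numbered 4, 3, 5 and 3. The lower one was not called without sob3-6 replicate 2 or any SOB3-D library, and 2 were lower without sob3-6 replicate 1. EXPA6 was at 152, 144 and 175 CPM in sob3-6, against 102, 91.5 and 89.7 CPM in SOB3-D (1.67-fold higher, log2 difference 0.73 ± 0.09, limma adjusted p = 0.00181). EXPA5, a brassinosteroid-responsive expansin, and EXLA2 were 2.58-fold higher and 1.79-fold higher. Of 47 arabinogalactan proteins 7 were higher and 2 lower, and FLA13 was at 29.3, 29.2 and 41.7 CPM in sob3-6, against 5.301, 6.21 and 9.02 CPM in SOB3-D (4.88-fold higher, log2 difference 2.22 ± 0.21, limma adjusted p = 0.000635). Without sob3-6 replicate 1 or 2 or SOB3-D replicate 1 or 2 the higher ones numbered 4, and without any library but sob3-6 replicate 3 the lower ones numbered 1. AGP4 was the lower member with the largest difference, at 41.6, 42.8 and 42.3 CPM in sob3-6, against 86.5, 80.2 and 86.8 CPM in SOB3-D (2-fold lower, log2 difference -0.99 ± 0.07, limma adjusted p = 0.000181).

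Xyloglucan endotransglucosylase/hydrolases (XTHs), which cut and rejoin the hemicellulose xyloglucan, moved both ways, with 2 of 29 higher and 2 lower. XTH17 was at 34.6, 45.1 and 47.5 CPM in sob3-6, against 7.95, 5.48 and 12.7 CPM in SOB3-D (4.86-fold higher, log2 difference 2.28 ± 0.26, limma adjusted p = 0.00147) and XTH4, an abundant member, was 1.58-fold higher (limma adjusted p = 0.00797). XTH31, which hydrolyses xyloglucan in roots, was at 40.4, 45.2 and 32.4 CPM in sob3-6, against 122.7, 142 and 149.7 CPM in SOB3-D, with every sob3-6 library far below every SOB3-D library (3.51-fold lower, log2 difference -1.81 ± 0.13, limma adjusted p = 0.000181). XTH7 was 1.702-fold lower (124 ± 14.4 CPM in sob3-6, against 211 ± 19.9 CPM in SOB3-D, SD, limma adjusted p = 0.00298). The window before XTH31 is shown because it holds the AT-rich letters AATATATT, of the kind that AT-hooks bind. It lies at chr3:16448845-16449094 on the minus strand of TAIR10.1 (RefSeq genome), with the letters in capitals at positions -174 to -167.
XTH31: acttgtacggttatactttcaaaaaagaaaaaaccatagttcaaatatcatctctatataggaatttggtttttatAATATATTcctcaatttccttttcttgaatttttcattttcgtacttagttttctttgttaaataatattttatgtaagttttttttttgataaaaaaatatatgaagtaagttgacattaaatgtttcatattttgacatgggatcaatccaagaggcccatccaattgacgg
Such letters were in 4.64% of the promoters of AHL-induced genes, against 4.39% of all.

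Of 48 wax and cutin genes 10 were higher (20.8%) and 1 lower, and without sob3-6 replicate 1 or 2 or SOB3-D replicate 2 the higher ones numbered 6. MYB96, a factor that raises wax synthesis in drought, was at 36.6, 34.99 and 42.3 CPM in sob3-6, against 19.8, 21.1 and 16.2 CPM in SOB3-D (1.997-fold higher, log2 difference 0.98 ± 0.12, limma adjusted p = 0.00215). KCS3 and KCS16, condensing enzymes of very long fatty acids, were 1.75-fold higher and 2.02-fold higher. MYB30, another regulator of these enzymes, was at 28.7, 24.03 and 26.8 CPM in sob3-6, against 38.8, 37.5 and 39.1 CPM in SOB3-D and was the lower one (1.45-fold lower, log2 difference -0.53 ± 0.09, limma adjusted p = 0.0085). Of 17 epidermis and trichome markers 3 were higher, 1 without sob3-6 replicate 1 or 2, and the summed level of the list was 1996 to 2283 CPM in sob3-6 and 1664 to 1839 CPM in SOB3-D. The part of this in the wax result was not tested.

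Cytochrome P450s, the monooxygenases of hormone and defence metabolism, had 25 of 168 genes higher (14.9%) and 2 lower, and 19 to 27 higher without any 1 library. Beyond the glucosinolate enzymes and MAH1, CYP71B24 was at 3.05, 3.42 and 5.78 CPM in sob3-6, against 0.379, 0.487 and 0.615 CPM in SOB3-D (8.28-fold higher, log2 difference 2.17 ± 0.27, limma adjusted p = 0.00231) and CYP96A9, of the family of MAH1, was 6.32-fold higher (limma adjusted p = 0.0025). CYP705A22 was lower at all 3 times, with 10.99, 12.8 and 10.5 CPM in sob3-6, against 25.9, 26.9 and 26.5 CPM in SOB3-D at ZT24 (2.31-fold lower, log2 difference -1.18 ± 0.11, limma adjusted p = 0.000591). Of 26 subtilases, secreted serine proteases, 7 were higher (26.9%) and none lower by limma, edgeR or DESeq2 or at an unadjusted p under 0.05, 24 had a positive log2 difference, and the median was 0.44. Without sob3-6 replicate 1 or 2 or SOB3-D replicate 1 or 2 the count was 4, 3, 4 and 4, and with the replicate block 11. AT4G21650 was at 16, 24.98 and 17.7 CPM in sob3-6, against 3.15, 8.403 and 4.51 CPM in SOB3-D (3.65-fold higher, log2 difference 1.85 ± 0.30, limma adjusted p = 0.00782). Among 113 UDP-glycosyltransferases 14 were higher (12.4%) and 1 lower, and without sob3-6 replicate 2, SOB3-D replicate 2 or SOB3-D replicate 3 the higher ones numbered 8, 9 and 7. AT5G37950 was at 7.82, 7.42 and 9.05 CPM in sob3-6, against 0.631, 0.365 and 0.512 CPM in SOB3-D (16.1-fold higher, log2 difference 3.10 ± 0.20, limma adjusted p = 0.000143), and UGT78D1, which adds rhamnose to flavonols, was 2.32-fold higher. UGT76C2, which glucosylates cytokinins, was 2.27-fold lower (13.8 ± 0.6297 CPM in sob3-6, against 31.4 ± 5.22 CPM in SOB3-D, SD, limma adjusted p = 0.00143) and was the lower member (2 were lower without sob3-6 replicate 1 or 2).

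The hormone lists other than auxin were uneven. Of 21 genes of brassinosteroid signalling and 17 of strigolactone and karrikin signalling none was called by limma, edgeR or DESeq2, and 4 of the first list and 3 of the second had an unadjusted p under 0.05. Of 22 genes of brassinosteroid synthesis and inactivation 3 were higher (13.6%) and 2 lower (9.09%). Only 1 was higher without sob3-6 replicate 1 or 2 or SOB3-D replicate 2, and the lower ones numbered 0 without sob3-6 replicate 2 or SOB3-D replicate 3 and 1 without sob3-6 replicate 3 or SOB3-D replicate 1 or 2. BR6OX2, the last oxidase of brassinosteroid synthesis, was at 74.1, 67.4 and 83.2 CPM in sob3-6, against 51.1, 36.8 and 38.5 CPM in SOB3-D (1.78-fold higher, log2 difference 0.83 ± 0.13, limma adjusted p = 0.0067). In gibberellin synthesis and inactivation 1 of 15 was higher, not without sob3-6 replicate 2, and 1 was lower. GA3OX1, which makes active gibberellin, was at 7.45, 7.42 and 7.64 CPM in sob3-6, against 12.9, 11.4 and 12.4 CPM in SOB3-D (1.63-fold lower, log2 difference -0.67 ± 0.12, limma adjusted p = 0.0103). Of 19 genes of gibberellin signalling and the GASA family 2 were higher and 1 lower, and 1 was higher without sob3-6 replicate 2 or 3 or SOB3-D replicate 1 or 2. The lower one was not called without sob3-6 replicate 1 or 2 or SOB3-D replicate 3, and 2 were lower without sob3-6 replicate 3. AT2G14900, of the gibberellin-regulated GASA type, was 2.73-fold higher (28.1 ± 2.098 CPM in sob3-6, against 10.3 ± 1.97 CPM in SOB3-D, SD, limma adjusted p = 0.00102). In ethylene synthesis and signalling 3 of 26 were higher (11.5%) and 1 lower, the lower one not without sob3-6 replicate 3 or SOB3-D replicate 2 or 3, and ACS11 was 6.49-fold higher (6.36 ± 3.87 CPM in sob3-6, against 0.979 ± 0.351 CPM in SOB3-D, SD, limma adjusted p = 0.0101). In jasmonate, where 5 of 32 were higher (15.6%, and 2, 2, 3 and 1 genes without sob3-6 replicate 1 or 2 or SOB3-D replicate 1 or 2), VSP2, a vegetative storage protein, was at 9.04, 16.5 and 8.62 CPM in sob3-6, against 2.78, 1.83 and 2.46 CPM in SOB3-D (4.83-fold higher, log2 difference 2.01 ± 0.26, limma adjusted p = 0.00264).

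Of 36 genes of abscisic acid metabolism and response 5 were higher (13.9%) and none lower (4 at an unadjusted p under 0.05, none by edgeR or DESeq2). The count was 3 without sob3-6 replicate 1 or 2 or SOB3-D replicate 3, 12 without sob3-6 replicate 3, and 15 with the replicate block. RD20, a lipid-body protein of drought, was at 37.5, 41 and 30.4 CPM in sob3-6, against 16.5, 13.9 and 10.04 CPM in SOB3-D (2.69-fold higher, log2 difference 1.41 ± 0.18, limma adjusted p = 0.00257). Of 15 cold-regulated genes and CBF factors 4 were higher (26.7%) with a median of 0.65. This count was 1, 1 and 7 without sob3-6 replicate 1, 2 or 3 and 2, 2 and 1 without SOB3-D replicate 1, 2 or 3. The dehydrin ERD10 was 1.46-fold higher (125 ± 8.86 CPM in sob3-6, against 85.6 ± 7.36 CPM in SOB3-D, SD, limma adjusted p = 0.00637).

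Most transcription factor families were near the background. The bHLH family had 12 of 99 genes higher (12.1%), 10 to 12 without any 1 library and 17 with the replicate block, and 2 lower (1 without sob3-6 replicate 2 and 0 without SOB3-D replicate 1 or 2), around a median of -0.01. The NAC family stood on the other side, with none of 73 higher (6 at an unadjusted p under 0.05, none by edgeR or DESeq2) and 4 lower, 3 or 4 lower without any 1 library and 8 lower with the replicate block. NAC001 was at 15.9, 18.6 and 14.5 CPM in sob3-6, against 28.4, 36.05 and 31.4 CPM in SOB3-D (1.96-fold lower, log2 difference -0.95 ± 0.13, limma adjusted p = 0.00306). NAC2 and NAC041 were 2.04-fold lower and 1.72-fold lower. Of 53 genes of the HD-ZIP list, matched by homeobox names and without the KNOX and WOX genes, 7 were higher (13.2%) and 3 lower, none of the lower ones without sob3-6 replicate 2 or SOB3-D replicate 2 or 3 and 1 of them without sob3-6 replicate 1. HB52 was at 26.1, 31.7 and 28.4 CPM in sob3-6, against 10.5, 9.99 and 12.5 CPM in SOB3-D (2.62-fold higher, log2 difference 1.35 ± 0.12, limma adjusted p = 0.000571). Outside that list, KNAT1 (BREVIPEDICELLUS), a class I KNOX gene of the meristem and stem, was at 60.1, 56.4 and 57.5 CPM in sob3-6, against 31.7, 23.02 and 26.2 CPM in SOB3-D (2.15-fold higher, log2 difference 1.10 ± 0.11, limma adjusted p = 0.000989). In the MADS family FLC, the repressor of flowering, was at 5.13, 6.597 and 7.75 CPM in sob3-6, against 17.9, 12.8 and 15.2 CPM in SOB3-D (2.36-fold lower, log2 difference -1.18 ± 0.18, limma adjusted p = 0.00585), and SEP4 was 1.93-fold lower (limma adjusted p = 0.0105).

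Within the AHL family itself 3 of 23 were higher, SOB3 among them, and 2 lower. AHL20 was at 54.6, 57.8 and 40.9 CPM in sob3-6, against 23.1, 23.9 and 25.9 CPM in SOB3-D (2.104-fold higher, log2 difference 1.04 ± 0.13, limma adjusted p = 0.00219) and AT2G33620 was 1.61-fold higher (limma adjusted p = 0.00807). AHL1 was at 23.6, 28.4 and 24 CPM in sob3-6, against 38.2, 36.3 and 35.7 CPM in SOB3-D (1.45-fold lower, log2 difference -0.53 ± 0.10, limma adjusted p = 0.0115), while the other lower member, AT5G62260, lost its call without any library but sob3-6 replicate 1. In the circadian clock 2 of 28 were higher and 2 lower, and neither of the lower ones was called without sob3-6 replicate 1 or 2 or SOB3-D replicate 3, and 1 was without SOB3-D replicate 1 or 2. LNK1 and LNK3 were 1.37-fold higher and 1.51-fold higher. CDF1, a DOF repressor of flowering, was 1.66-fold higher (27.8 ± 2.39 CPM in sob3-6, against 16.7 ± 1.53 CPM in SOB3-D, SD, limma adjusted p = 0.0058).

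In nitrogen metabolism 2 of 37 genes of nitrate assimilation and transport were higher (5.41%) and 3 lower (8.11%), with a median of -0.05. Without any 1 library 1 or 2 were higher and 2 to 4 lower. GLT1, the NADH-dependent glutamate synthase, was at 1055, 918 and 879 CPM in sob3-6, against 1534, 1887 and 1904 CPM in SOB3-D, every sob3-6 library below every SOB3-D library (1.87-fold lower, log2 difference -0.90 ± 0.11, limma adjusted p = 0.00177). LBD38, a repressor of nitrate responses, was at 49.3, 52.7 and 62.6 CPM in sob3-6, against 97.1, 106 and 114 CPM in SOB3-D (1.92-fold lower, log2 difference -0.94 ± 0.10, limma adjusted p = 0.0012), whereas NRT1.7, which loads nitrate into the phloem, was at 39.5, 26.3 and 31.9 CPM in sob3-6, against 14.4, 14.98 and 12.9 CPM in SOB3-D (2.31-fold higher, log2 difference 1.16 ± 0.15, limma adjusted p = 0.00242). In the MATE transporters, where 1 of 44 was higher (2 without sob3-6 replicate 3) and 4 lower (2 without SOB3-D replicate 1 or 2), AT4G23030 was at 4.52, 2.59 and 3.71 CPM in sob3-6, against 10.3, 11.6 and 11.4 CPM in SOB3-D (3.08-fold lower, log2 difference -1.52 ± 0.19, limma adjusted p = 0.00243) and AT5G17700 was 2.69-fold higher. Of 29 aquaporins none was higher (1 at an unadjusted p under 0.05, none by edgeR or DESeq2) and 2 were lower, none without sob3-6 replicate 2, 1 without SOB3-D replicate 1 or 3, and 5 without sob3-6 replicate 3. TIP1;1, a water channel of the vacuole, was at 202, 171 and 213 CPM in sob3-6, against 310.4, 298 and 437 CPM in SOB3-D (1.78-fold lower, log2 difference -0.82 ± 0.14, limma adjusted p = 0.0106), and its call was lost without sob3-6 replicate 2 (limma adjusted p = 0.0547). Of 25 cysteine-rich receptor-like kinases 4 were higher (16%) and 1 lower, with a median of 0.33. Without sob3-6 replicate 2 or SOB3-D replicate 2 the higher ones numbered 1 and 2. Without sob3-6 replicate 3 or SOB3-D replicate 1 the lower ones numbered 3 and 2. CRK28, the lower one, was 2.31-fold lower (10.9 ± 3.31 CPM in sob3-6, against 25.2 ± 3.08 CPM in SOB3-D, SD, limma adjusted p = 0.00685).

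Some members of tissue marker lists were called as well. The guard cell and stomatal list had a median of 0.00, with 10 of 19 log2 differences above 0. The phloem list had a median of 0.14, with 10 of 17 above 0. For the shoot meristem and leaf list the median was 0.23, with 14 of 19 above 0. Of 19 genes of the guard cell and stomatal list 3 were higher, of which only KAT1, the potassium channel of guard cells, marks that cell type. KAT1 was at 44.6, 41.6 and 48.9 CPM in sob3-6, against 13.5, 15.7 and 17.1 CPM in SOB3-D (2.92-fold higher, log2 difference 1.52 ± 0.11, limma adjusted p = 0.000237). The others were STOMAGEN, a mesophyll peptide that raises stomatal number, at 1.73 times the SOB3-D mean, and CA1. The summed level of this list was 1996 to 2412 CPM in sob3-6 and 1232 to 1446 CPM in SOB3-D, and without CA1 it was 228 to 274 CPM in sob3-6 and 212 to 220.0 CPM in SOB3-D. Of 17 phloem markers 3 were higher, and the sieve element proteins SEOa and SEOR1 were 1.63-fold higher and 1.63-fold higher, with summed levels of the list of 704 to 824 CPM in sob3-6 and 652 to 728 CPM in SOB3-D. Of 19 shoot meristem and leaf genes 2 were higher and 1 lower, the lower one not without sob3-6 replicate 1 or 2 or SOB3-D replicate 1, CLV1 being 1.66-fold higher (117 ± 18.6 CPM in sob3-6, against 70.5 ± 7.15 CPM in SOB3-D, SD, limma adjusted p = 0.00782), and the list summed to 482 to 537 CPM in sob3-6 and 408 to 435 CPM in SOB3-D. The part of these tissues in the other results was not tested.

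The lists without a call by limma included 43 histones, 39 late embryogenesis abundant genes and 20 terpene synthases. With the replicate block 1 histone, 6 late embryogenesis abundant genes and 2 terpene synthases were lower and 1 terpene synthase was higher. By edgeR none of these was called, and by DESeq2 2 late embryogenesis abundant genes were lower. Without SOB3-D replicate 2 limma called 7 late embryogenesis abundant genes lower, and the median of that list was -0.24, with 8 of 39 log2 differences above 0. At an unadjusted p under 0.05 there were 3 histones, 8 late embryogenesis abundant genes and 5 terpene synthases. Over all 20530 genes tested, 2733 were higher and 1699 lower at that threshold. Of 81 cytosolic ribosomal protein genes none was higher (2 at an unadjusted p under 0.05, none by edgeR or DESeq2) and 1 was lower (22 at an unadjusted p under 0.05, 3 by edgeR and 2 by DESeq2), and with the replicate block 2 were higher and 11 lower. Of 98 cell cycle genes 2 were higher and 1 lower, and of 60 WRKY genes 2 were higher and none lower, and the higher ones were not called without SOB3-D replicate 3 (cell cycle) or sob3-6 replicate 2 (WRKY). Leaving out any other 1 library left 1 higher cell cycle gene.

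Against the other times, 391 of the 1031 AHL-repressed genes (37.9%) were also higher at ZT4, where the background was 4.38%, and 432 (41.9%) at ZT9, where it was 6.09%. For 277 (26.9%) the call was the same at all 3 times. Of the 388 AHL-induced genes 78 (20.1%) were also lower at ZT4 (background 2.49%), 100 (25.8%) at ZT9 (background 4.11%), and 44 (11.3%) at both. In contrast, 417 AHL-repressed (40.4%) and 240 AHL-induced genes (61.9%) were called at neither ZT4 nor ZT9. At ZT9, 58 of the AHL-repressed genes (5.63%) were lower in sob3-6, against a background of 4.11%. A call at 1 time and none at another does not show a difference, which was tested in 1 fit of the 18 libraries as the ZT24 difference minus the mean of the ZT4 and ZT9 differences. By this test 878 of 20567 genes departed (4.27%), 610 with the ZT24 difference higher than the mean of the others (2.97%) and 268 with it lower (1.30%), among them 225 of the AHL-repressed (21.8%) and 71 of the AHL-induced genes (18.3%). The AHL-repressed and AHL-induced genes were called by their ZT24 difference in the same libraries, and that difference is a term of this test. Shares above 4.27% among them are therefore partly built in. The count of 878 was 152 without replicate 1, 7 without replicate 2, 633 without replicate 3, and 1558 with the replicate block. Age differed with the time, 6 days at ZT24 and 5 days at ZT4 and ZT9, and the 2 cannot be told apart.

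By list, 15 of the 22 Calvin-Benson genes departed by this test, 15 of 50 photosystem genes, 6 of 24 in starch degradation, 6 of 30 aliphatic glucosinolate genes and 13 of 117 NB-LRR genes, and none of the 23 Aux/IAA, 58 SAUR and 26 subtilase genes. These counts rest on the same fit, whose calls fell to 7 over all genes without replicate 2. Among the genes named above that departed, BAM3 and ECS1 kept an adjusted p under 0.05 without replicate 2 (limma adjusted p = 0.0196 for each) and no other did. The difference for BAM3 was 2.14 on the log2 scale and for ECS1 2.26.

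Neighbouring genes were called together in places. Of the 1013 AHL-repressed genes with a position 200 (19.7%) lay next to another one, in 77 pairs and in 15 runs of 3 or 4 tested genes that held 46, and of 388 AHL-induced genes 38 (9.79%) lay next to another. Some neighbours fall together without any grouping, since 5.02% of all tested genes were higher and 1.89% lower. The share that this alone gives was not computed. Of the 15 runs, 1 holds AT1G58807 and AT1G58848 and 1 holds AT1G59124 and AT1G59218, whose reads cannot be assigned, so these neighbours are not called independently. The part of shared reads in the other runs and pairs was not tested. The longest run of lower genes was of 5, AT5G45470 to AT5G45510 on chromosome 5, and the 3 genes that follow, AT5G45520 to AT5G45540, were higher. This stretch was singled out after its values were seen. AT5G45510, a leucine-rich repeat gene, was at 251, 262 and 249 CPM in sob3-6, against 348, 316 and 359 CPM in SOB3-D (1.34-fold lower, log2 difference -0.42 ± 0.07, limma adjusted p = 0.00718), AT5G45490, a P-loop ATPase, was 1.56-fold lower, and AT5G45470, of unknown function (DUF594), was 1.33-fold lower. AT5G45520, also leucine-rich repeat, was at 4.88, 3.77 and 3.71 CPM in sob3-6, against 0.883, 1.58 and 1.23 CPM in SOB3-D (3.35-fold higher, log2 difference 1.43 ± 0.23, limma adjusted p = 0.00692). The calls of AT5G45480, AT5G45500, AT5G45530 and AT5G45540 were each lost without sob3-6 replicate 2 (limma adjusted p of 0.0615 to 0.121), and each also without 3 to 5 of the other libraries.

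**Figure D5:**
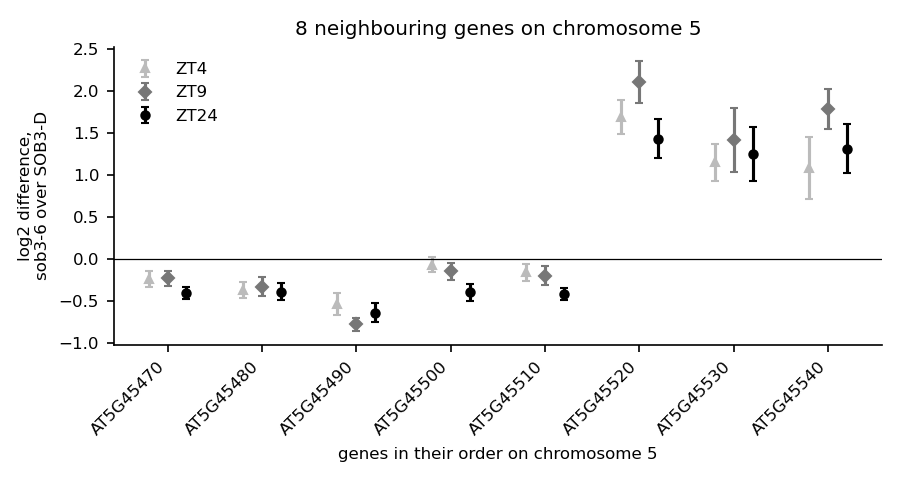
Log2 difference, sob3-6 minus SOB3-D (± standard error), at ZT4 (triangles), ZT9 (diamonds) and ZT24 (circles) for 8 genes in their order on chromosome 5. At ZT24 the 5 genes from AT5G45470 to AT5G45510 stand between -0.39 and -0.64 and the next 3 between 1.25 and 1.43, and the direction at ZT4 and ZT9 is the same for each gene.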

How the data were processed

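The authors sequenced single reads from stranded mRNA libraries (KAPA kit), converted them with bcl2fastq and aligned them with Bowtie to the TAIR10 cDNA sequences, keeping every best alignment of a read. Whether strand was used in counting is not given in the sources used here. The authors deposited a signal table for each time point, in CPM (reads scaled to the mapped reads of the library) for 32811 transcripts. Because a read counts on each best match, the deposited signal of a ZT24 library sums to 1559998 to 1573550. Whole reads were recovered for 100% of values within 0.01. Near-identical genes share such reads, so the share of each named gene’s 84-base stretches that occur in another gene was counted.

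Values were tested as log2(CPM + 0.5) with limma 3.58.1 (trend, two-sided) in R 4.3.3, sob3-6 minus SOB3-D, over the 28176 transcripts that averaged 0.5 CPM or more, with Benjamini-Hochberg adjustment and a threshold of 0.05. Shown values are those of the gene's most abundant transcript. The p-values of the main fit measure the spread between libraries of a genotype, which came from different plates. Those with the replicate block measure the spread of the genotype difference between replicate numbers. The study's plates pair the samples, so a fit with the replicate block was run beside the main one without it. Deviations of same-numbered libraries from their genotype means correlated with r = 0.319, 0.184 and 0.255, and those of different numbers with -0.225 to -0.033. Such deviations cancel out within a genotype, so the negative values follow in part from the positive ones. The count tests of edgeR 4.0.16 and DESeq2 1.42.0 on the recovered reads were alternatives. On simulated reads for the 28176 transcripts of ZT24, limma recovered 22%, 93% and 100% of 200 transcripts changed by 1.5-, 2- and 3-fold. The changed transcripts were drawn from those with a mean of at least 5 CPM, and the dispersion was set to 0.02 for all.

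The members and the 91 gene lists, with the alternatives, were chosen with earlier results of these data known. Genes were named as the 12 with the largest log2 difference in each direction (mean of at least 2 CPM), SOB3, up to 6 called members of a list in each direction, and any member of lists of up to 35 tested genes. Promoters were read from the RefSeq TAIR10.1 genome and annotation with Python 3.11.15, and 20452 of the 20530 tested genes had a position. The lists, positions and stretches use the same reference.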

Additional observations from a re-analysis of the deposited data

Results flagged for a closer look

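For 45 of the named genes the sob3-6 minus SOB3-D difference at ZT24 departed from the mean of the ZT4 and ZT9 differences in 1 limma fit of all 18 libraries (adjusted p under 0.05 over all genes). The values below are that departure on the log2 scale, positive where the ZT24 difference was the higher one. Without replicate 2 only ECS1 and BAM3 of the 45 kept an adjusted p under 0.05 (limma adjusted p = 0.0196 for each), and with the replicate block all but AT5G58120 kept it (limma adjusted p = 0.0545). Over all genes the test called 878 (4.27%), and 152, 7 and 633 without replicate 1, 2 and 3. Many of the named genes were chosen by their call or size at ZT24. That difference is a term of this test, so the count of 45 is partly built in.

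In carbon metabolism the departure was 1.70 for CP12-2, 1.48 for CA1, 1.40 for FBA1, 1.17 for SBPASE, 1.09 for RBCS2B, 1.08 for RBCS1B, 0.83 for RCA, 0.68 for PRK (phosphoribulokinase), 2.14 for BAM3, 0.84 for PWD (phosphoglucan, water dikinase) and 0.75 for ADG1 (ADP-glucose pyrophosphorylase). In chlorophyll and the photosystems it was 1.16 for FC2, 0.56 for POR C, -0.56 for PSAE-2 and -3.29 for PORA.

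In aliphatic glucosinolates it was 2.58 for CYP83A1, 2.15 for IPMI1, 2.11 for CYP79F2, 1.89 for IMD1 (isopropylmalate dehydrogenase), 1.28 for UGT74C1 and 1.03 for MYB28. In NB-LRR genes it was 1.17 for AT5G58120, 1.01 for AT1G62630, 0.94 for AT1G61300, 0.88 for AT1G56520, 0.81 for AT4G19530, 0.67 for AT1G58602, 0.61 for SNC1, and 0.36 for AT1G58807 and 0.36 for AT1G59124, which share their reads.

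In growth, wall and wax genes it was 1.56 for CER4 (a fatty acyl reductase), 1.19 for EXPB3 (an expansin), 0.99 for CKX5, 0.79 for CYP88A3 (ent-kaurenoic acid oxidase of gibberellin synthesis), 0.77 for ATHB4, 0.50 for GH3.5, -0.57 for MYB30, -0.59 for XTH4, -0.67 for AIF1, -1.05 for AGP4, -1.06 for XTH31 and -1.26 for AT3G07010 (a pectate lyase-like gene). For the remaining genes it was 2.26 for ECS1, -1.51 for AT2G42170 and -2.23 for AT4G23030.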

How the results depend on the processing

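The total of 1419 genes called at ZT24 (1031 higher and 388 lower in sob3-6) became 844 (619 and 225) with no filter on low values, of which 748 were among the 1419, 2736 (1744 and 992) with the replicate block, 2788 (1674 and 1114) by edgeR's quasi-likelihood test with the replicate block, 591 (457 and 134) at an adjusted p under 0.01, and 372 (311 and 61) at an absolute log2 difference of at least 1. With edgeR's exact test 596 genes were lower. The cause of these shifts was not tested, except that the stricter thresholds call fewer genes by construction. Leaving out 1 library gave 728 to 1344 called genes, 548 to 931 higher and 180 to 413 lower. The total of 449 distinct called genes within the gene lists became 255 with no filter, 830 with the block, 853 by edgeR with the block, 214 at the stricter p and 148 at the larger fold, and 259 to 445 without 1 library. The 878 genes whose ZT24 difference departed from the mean of ZT4 and ZT9 became 1558 with the replicate block and 7 to 633 without 1 replicate number, 7 being without replicate 2. All 1419 calls were kept with the block. Of the 186 named genes called in the main fit none changed sign. Their calls were lost for 59 with no filter, 31 without sob3-6 replicate 2 and 22 in 1 fit of all 18 libraries. These genes were called in the same libraries, so a kept sign is partly built in. Other pseudocounts (0.1 and 1 CPM), a mean of at least 5 CPM, TMM rescaling, edgeR without the block, DESeq2, 1 fit of all 18 libraries and 1 transcript per gene gave 1213 to 1465 called genes, of which 68.7% to 73.9% were higher, against 72.7%. Depth limits the low genes: 3 reads are 0.307 to 0.379 CPM. In the simulation a 1.5-fold change was recovered for 22% of the changed transcripts. All of these had a mean of at least 5 CPM, so recovery among lower ones was not tested.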

Other observations

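Some smaller lists fell outside the comparisons above. Of 21 plant defensins and thionins tested 2 were higher in sob3-6, and 2 or 3 were without any 1 library. Of 24 flavonoid and anthocyanin genes 1 was higher, UGT78D1, and it was also higher at ZT4 (log2 1.05) and ZT9 (log2 0.72). Of 35 chromatin remodelling genes 1 was lower and none was higher by limma, edgeR or DESeq2 (2 at an unadjusted p under 0.05). Of 36 GRAS factors 3 were lower and 1 was higher, and the higher one was not called without sob3-6 replicate 2. By chromosome, 4.25% to 5.29% of tested genes were higher and 1.59% to 2.06% lower.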
